A study of Homo sapiens with 8 samples.

Results

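The 9 genes described here are common readouts of a pair of signalling pathways that respond to cell contact, cell shape and growth factors. They are CTGF, CYR61, ANKRD1, AMOTL2, LATS2 and AXL, known as targets of YAP, and TGFBI, SMAD7 and SKIL, known as targets of TGF-beta. They were chosen by name, and all 9 had 1 row of their own in each of the 2 deposited tables, among 42071 gene rows for MCF10A and 42101 for the NOTCH1-labelled line.

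YAP is a transcriptional coactivator that binds DNA through TEAD factors. Kinases of the Hippo pathway, LATS2 among them, phosphorylate it and keep it out of the nucleus, and several YAP targets act back on YAP as inhibitors. TGF-beta signals through receptor kinases to SMAD proteins, and its targets likewise include feedback inhibitors. CTGF is known to answer to both pathways. Both are studied in mammary epithelial cells for their part in growth control, matrix production and the loss of epithelial traits.

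RNA was sequenced from 8 samples in 4 groups of 2. MCF10A is an immortal line of human breast epithelium that does not form tumours, and the second line is a derivative of it labelled as having extra NOTCH1 intracellular domain. Each line received 30 µM ginkgolic acid, which blocks the attachment of SUMO to proteins, or the solvent DMSO for 3 days, in medium with horse serum, insulin, cholera toxin, epidermal growth factor and hydrocortisone. The promoter behind the extra NOTCH1, the number of clones and the origin of the 2 samples of a group are not stated in the labels.

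The tables hold 1 FPKM per gene and group, that is, fragments scaled by transcript length and by mapped fragments. No value below therefore has a replicate error, nothing was tested, and the depth is unknown. "Higher" and "lower" describe the group values, with 2-fold as the size rule. Genes were called measured when the larger of the 2 group values of a line reached 1 FPKM. Each table was normalized separately, so levels set across the lines carry an unknown factor.

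NOTCH1 itself was at 5.03 FPKM under DMSO in the NOTCH1-labelled line and at 11.4 FPKM in MCF10A. This order goes against the label, though levels set across the lines carry the unknown factor named above. Under ginkgolic acid the values were 12.4 and 6.18 FPKM, in that order. Directions between the lines therefore rest on the label. Of 8 epithelial markers, KRT5 had no row of its own in MCF10A, and the other 7 were measured in both lines. These 7 summed to 513 FPKM under ginkgolic acid and 366 under DMSO in MCF10A, and to 891 and 377 in the NOTCH1-labelled line. KRT5 went the other way in the NOTCH1-labelled line, at 614 FPKM under ginkgolic acid against 990 under DMSO. With KRT5 the sum there was 1505 against 1367 FPKM. In MCF10A 2 of the 7 were 2-fold or more higher, among them EPCAM, a surface adhesion protein, at 110 and 41.2 FPKM, and 3 were lower by as much. The 3 lower ones were the junction protein gene CDH1, at 39.2 and 96.6 FPKM, and the basal markers KRT14, at 5.68 and 21.8, and TP63, at 8.53 and 20.5. With KRT5, 3 of 8 were 2-fold or more higher and 1 lower by as much in the NOTCH1-labelled line. Of all measured genes, 24.3% were higher and 15.2% lower by as much in MCF10A, and 18.9% and 18.8% in the NOTCH1-labelled line. The part of these marker differences in the results below was not tested. The 7 fibroblast markers with a row of their own summed to 66.3 FPKM under ginkgolic acid against 70.4 under DMSO in MCF10A, and to 67.4 and 88.5 in the NOTCH1-labelled line, so this sum was not higher under ginkgolic acid in either line. Endothelial markers summed to 2.95 to 10.9 FPKM and blood cell markers to 12.8 to 17.6. CLDN5, of the endothelial list, and HBB, of the blood list, were listed at 0 in MCF10A under DMSO.

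Promoter sequences are shown because the 6-letter core GGAATG, known as the M-CAT or TEAD core, was present in each YAP target with an entry. They come from RefSeq on GRCh38.p14, with 250 bases before and 50 after each annotated start, and 8 of the 9 genes had an entry. CTGF and CYR61 appear there under their newer symbols, CCN2 and CCN1, of which CCN1 had none. The core was present, on either strand, for 5 of the 5 YAP targets with an entry and for 0 of the 3 TGF-beta targets. Of all 27305 genes in the table, 16.7% held it in at least 1 window. With only 3 TGF-beta targets, its absence there is not set apart from this share. The stretches below are 5′ to 3′ on the strand of each gene, with the core in capitals, written CATTCC where it is on the opposite strand. AXL lies on the plus strand and the other 4 genes on the minus strand.

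CTGF, chr6:131951442-131951561: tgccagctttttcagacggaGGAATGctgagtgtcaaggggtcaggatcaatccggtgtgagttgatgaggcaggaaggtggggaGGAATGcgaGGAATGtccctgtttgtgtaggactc
ANKRD1, chr10:90921292-90921317: caccaccaaaGGAATGgccctctcac
ANKRD1, chr10:90921200-90921225: cactgagtctGGAATGaaaattcacc
AMOTL2, chr3:134374501-134374526: gaaactctcaCATTCCtggcatagca
LATS2, chr13:21061562-21061587: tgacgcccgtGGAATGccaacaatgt
AXL, chr19:41226533-41226558: gactttgcacCATTCCactccctccg

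CTGF held 3 copies, starting 169, 104 and 95 bases before its start, and ANKRD1 held 2, starting 220 and 128 bases before. AMOTL2 and AXL have 2 annotated starts each and held the core at the second only, and that of LATS2 lay after its start. The palindromic SMAD element GTCTAGAC was in none of the windows of these 8 genes, and in those of 0.256% of all genes. The SMAD element CAGACA was in the windows of 3 YAP targets (ANKRD1, AMOTL2 and AXL) and of no TGF-beta target, against 19.9% of all genes. A match describes letters in a window and not a bound site. The printed genes differed widely in level, as the values below show.

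The best known YAP targets were the least expressed of the 9. CTGF, a secreted matricellular protein (hg19, chromosome 6, 132269315 to 132398533 in the tables), was at 0.170 FPKM under ginkgolic acid in MCF10A and listed at 0 under DMSO. In the NOTCH1-labelled line it was at 0.436 and 0.439 FPKM. All 4 groups lay under 1 FPKM, so CTGF was not counted as measured. The tables give for CTGF a locus of 129219 bases that it shares with the transcript RP11-69I8.3, whereas the gene spans 3198 bases in GENCODE. A listed 0 can be a failed estimate, and no ratio was formed for it.

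ANKRD1, an ankyrin repeat protein of muscle and a standard YAP reporter gene (chromosome 10, 92671852 to 92681033), was at 0.360 FPKM under ginkgolic acid against 0.419 under DMSO in MCF10A. In the NOTCH1-labelled line it was at 0.817 and 0.390 FPKM. It too was under 1 FPKM in every group. As a reference for such levels, chosen after seeing the data, olfactory receptor genes had mean levels of 0.562 and 0.244 FPKM under ginkgolic acid and DMSO in MCF10A and of 0.368 and 0.592 in the NOTCH1-labelled line. ANKRD1 lay above that mean in MCF10A under DMSO and in NOTCH1-labelled cells under ginkgolic acid, and below it in the other groups. CTGF lay above it only in NOTCH1-labelled cells under ginkgolic acid. That mean itself was higher under ginkgolic acid in MCF10A and lower with it in the NOTCH1-labelled line.

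CYR61, the matricellular relative of CTGF (chromosome 1, 86046443 to 86049645), was at 1.18 FPKM under ginkgolic acid against 0.233 under DMSO in MCF10A, and at 2.12 and 0.947 FPKM in the NOTCH1-labelled line. It was 5.06-fold higher under ginkgolic acid in MCF10A and 2.24-fold higher in the NOTCH1-labelled line. These levels are low. Of 383 olfactory receptor genes, 39.7% were at or above CYR61 in MCF10A under DMSO, and 8.09% under ginkgolic acid. Of 384 such genes in the NOTCH1-labelled line, 18.2% were at or above it under DMSO and 0 under ginkgolic acid. In MCF10A, genes whose larger value lay between 1 and 5 FPKM were 2-fold or more higher in 37.9% of cases, and in the NOTCH1-labelled line in 18.2%. With 1 FPKM added to both values the log2 ratio of CYR61 was 0.82 in MCF10A and 0.68 in the NOTCH1-labelled line, both under 2-fold.

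**Figure D1:**
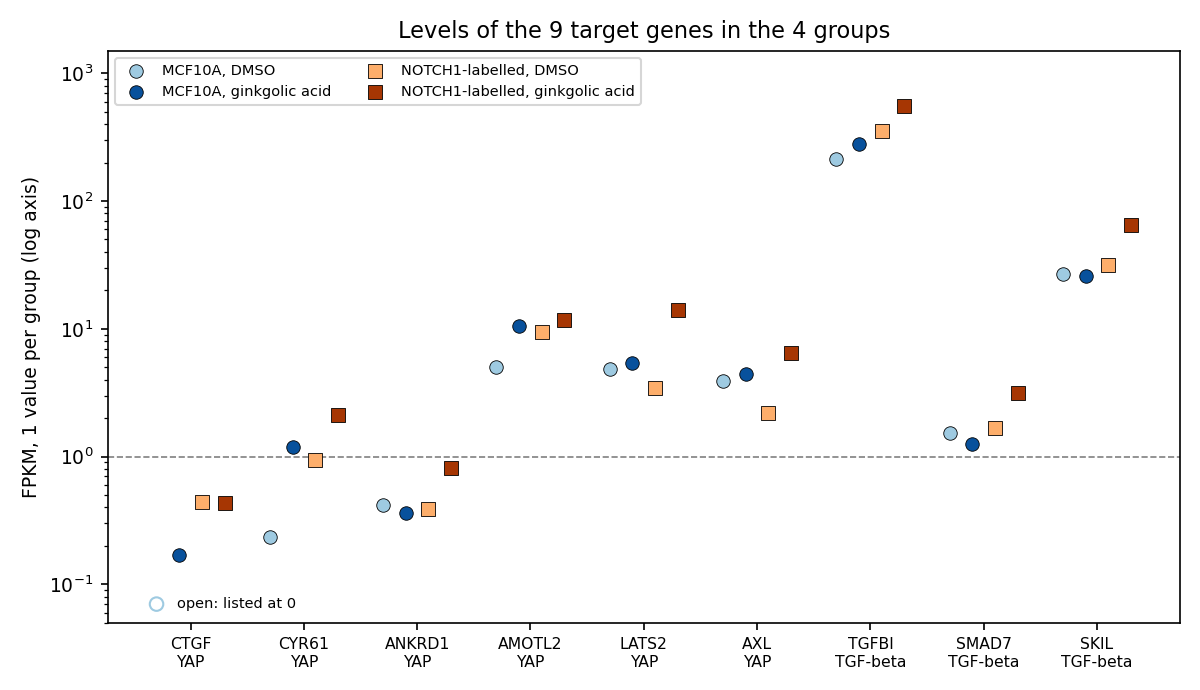
FPKM of each target gene in the 4 groups, on a log axis, with circles for MCF10A and squares for the NOTCH1-labelled line and the darker shade for ginkgolic acid; each point is 1 group value without error, the dashed line marks 1 FPKM and the open circle a value listed at 0. TGFBI lies above 200 FPKM in every group, while CTGF and ANKRD1 lie under 1 FPKM in all 4.

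The YAP targets that feed back on the Hippo pathway were expressed at moderate levels and differed between the lines. AMOTL2, a junctional angiomotin protein that binds YAP and holds it in the cytoplasm (chromosome 3, 134070693 to 134094321), was at 10.5 FPKM under ginkgolic acid against 5.05 under DMSO in MCF10A, and at 11.6 and 9.40 in the NOTCH1-labelled line. The ratio was 2.08-fold in MCF10A and 1.24-fold in the NOTCH1-labelled line. The MCF10A group under DMSO stood lowest, and the other 3 groups lay between 9.40 and 11.6 FPKM. AMOTL2 just passed the size rule in MCF10A, and with 1 FPKM added its log2 ratio was 0.93. It holds 1 annotated small RNA, MIR6827.

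LATS2, the kinase that phosphorylates YAP (chromosome 13, 21547170 to 21635718), was at 5.36 FPKM under ginkgolic acid against 4.81 under DMSO in MCF10A. In the NOTCH1-labelled line it was at 13.9 and 3.46 FPKM. The NOTCH1-labelled group under ginkgolic acid stood apart from the other 3, with a 4.03-fold ratio against 1.11-fold in MCF10A. LATS2 shares its locus with LATS2-AS1, an antisense transcript, which was listed at 0 in both MCF10A groups and at 0.202 FPKM under ginkgolic acid against 0.420 under DMSO in the NOTCH1-labelled line. The labels do not state whether the counting used strand. The small RNA gene RNU6-51, which shares this locus, was at 113 FPKM under DMSO in MCF10A and listed at 0 in the other groups. RNU4-9P, a small RNA gene within LATS2, was at 47.4 FPKM under DMSO in the NOTCH1-labelled line and listed at 0 in the other groups. Their part in the LATS2 values was not tested.

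AXL, a receptor tyrosine kinase of the TAM family whose ligand is GAS6 (chromosome 19, 41725107 to 41767670), was at 4.44 FPKM under ginkgolic acid against 3.88 under DMSO in MCF10A. In the NOTCH1-labelled line it was at 6.43 and 2.20 FPKM. The ratio was 2.92-fold in the NOTCH1-labelled line and 1.14-fold in MCF10A. For AXL and LATS2 the DMSO value of the NOTCH1-labelled line was the lowest of the 4, at 0.567 and 0.718 times that of MCF10A, so the larger ratios go with a lower starting value as well as a higher final one. GAS6 itself was at 18.8 and 40.7 FPKM in MCF10A, a log2 ratio of −1.11, and at 21.2 and 14.5 in the NOTCH1-labelled line. TYRO3, a related receptor, was at 7.90 and 3.92 FPKM in MCF10A and at 3.45 and 2.74 in the NOTCH1-labelled line.

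Among the TGF-beta targets, TGFBI was by far the most abundant of the 9 genes. It encodes a secreted matrix protein that binds integrins (chromosome 5, 135364583 to 135399508). It was at 277 FPKM under ginkgolic acid against 211 under DMSO in MCF10A, and at 553 and 353 FPKM in the NOTCH1-labelled line. Between 97.5% and 98.9% of protein-coding genes were lower in each group. The ratios were 1.31-fold and 1.57-fold, both under the size rule.

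SMAD7, the inhibitory SMAD that blocks the TGF-beta receptor (chromosome 18, 46446222 to 46477081), was at 1.25 FPKM under ginkgolic acid against 1.52 under DMSO in MCF10A, and at 3.17 and 1.67 FPKM in the NOTCH1-labelled line. SKIL, also called SnoN, a corepressor that binds SMADs (chromosome 3, 170075365 to 170114623), was at 25.9 and 26.7 FPKM in MCF10A and at 64.9 and 31.4 in the NOTCH1-labelled line. In both genes the NOTCH1-labelled group under ginkgolic acid was the highest and the other 3 groups lay close together, between 1.25 and 1.67 FPKM for SMAD7 and between 25.9 and 31.4 for SKIL. The ratios in the NOTCH1-labelled line were 1.90-fold for SMAD7, under the size rule, and 2.07-fold for SKIL, just over it. In MCF10A they were 0.819-fold and 0.973-fold, and the log2 ratio of SKIL there, −0.04, lay above 0 under each rescaling, at 0.07 to 0.13.

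Counted together, 2 of the 7 measured target genes were 2-fold or more higher under ginkgolic acid in MCF10A, CYR61 and AMOTL2, against 24.3% of 17664 genes, and 0 were 2-fold or more lower, against 15.2%. This share is near the background. CYR61 reached 1 FPKM in MCF10A only under ginkgolic acid, so that it could be counted there only as higher. In the NOTCH1-labelled line 4 of 7 were 2-fold or more higher, CYR61, LATS2, AXL and SKIL, against 18.9% of 19525 genes, and 0 were 2-fold or more lower, against 18.8%. Here too CYR61 reached 1 FPKM only under ginkgolic acid, so its ratio could only lie above 1-fold, and the counts including it are descriptions. The median log2 ratio of the 7 genes was 0.19 in MCF10A and 1.05 in the NOTCH1-labelled line. All measured genes had medians of 0.07 and 0.06. These shifted with level, to −0.18 and 0.20 for larger values of 5 to under 50 FPKM, and −0.17 and 0.36 at 50 FPKM or more. In the NOTCH1-labelled line 19.2% and 20.7% of genes at these 2 levels were 2-fold or more higher. The shares lower by as much were 10.5% and 5.92%, under the 18.8% of all genes. In bulk RNA a higher value from more cells with a transcript and one from more RNA per cell cannot be told apart.

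The NOTCH1-labelled counts depended on the scaling of the groups. When the upper quartiles of both groups were made equal, only LATS2 and AXL passed 2-fold among these 7 genes, and CYR61 and SKIL had log2 ratios of 0.84 and 0.73. Of all genes beyond 2-fold in this line, 50.1% were higher as deposited and 33.2% with equal upper quartiles. SKIL was also under 2-fold, at 0.91, when the median ratio was removed.

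**Figure D2:**
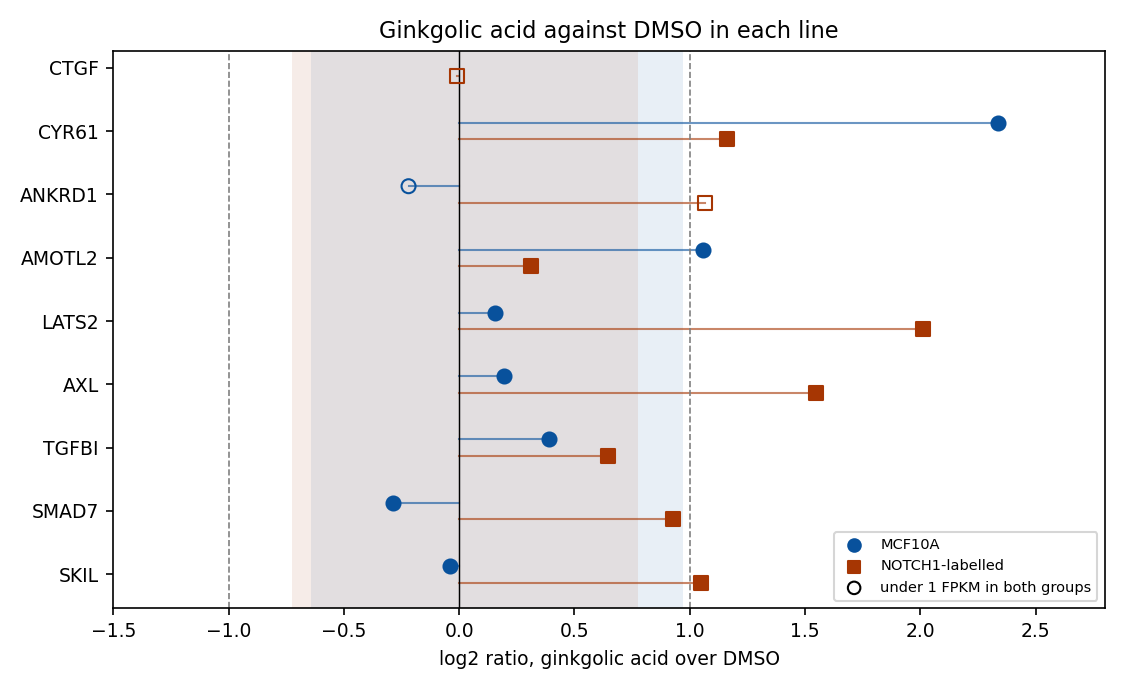
Log2 ratio of ginkgolic acid over DMSO for each target gene, with circles for MCF10A, squares for the NOTCH1-labelled line and open symbols for genes under 1 FPKM in both groups; the shaded bands hold the middle 50% of all measured genes in each line, the dashed lines mark 2-fold, and CTGF has no ratio in MCF10A. As deposited, LATS2, AXL, SKIL, SMAD7, TGFBI and ANKRD1 (open symbols) lie further right in the NOTCH1-labelled line, and CYR61 and AMOTL2 in MCF10A. With equal upper quartiles TGFBI is further right in MCF10A, by 0.19.

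To ask whether the lines differ in their response, the difference between the 2 log2 ratios was taken, NOTCH1-labelled line minus MCF10A. The difference was 1.86 for LATS2, 1.35 for AXL, 1.22 for SMAD7 and 1.09 for SKIL. Thus 4 of 7 genes were higher by at least 1, against 21.6% of 15499 genes. With 1 FPKM added to both values the difference of SMAD7, a gene of low level, was 0.81. The count was then 3 of 7, against 16.8% of all genes. TGFBI differed by 0.26 as deposited, and by values between −0.19 and 0.01 under the rescalings. AMOTL2, at −0.75, and CYR61, at −1.18, went the other way. CYR61 was the 1 of 7 genes lower by at least 1, against 22.4% of all genes. The CYR61 difference rests on a DMSO value of 0.233 FPKM in MCF10A. With 1 FPKM added to both values this difference was −0.14, and 0 of the 7 genes were lower by at least 1. CYR61 reached 1 FPKM only under ginkgolic acid in both lines, so the counts here that include it are descriptions. The median over the 7 genes, CYR61 included, was 1.09, and over all genes 0.22. With the upper quartiles made equal, LATS2 was the only 1 of the 7 higher by at least 1, and CYR61 and AMOTL2 were both lower by at least 1. The split over all genes then moved from 49.0% to 28.3% higher among those beyond 1. No replicate error exists for these differences.

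Set across the tables, 8 of the 9 genes had their highest value in the NOTCH1-labelled group under ginkgolic acid, CTGF being the exception. Of 24823 genes with at least 1 FPKM in any group, 32.5% had their highest value there. CTGF and ANKRD1 are not among these genes, and the like count is 7 of 7 target genes.

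Of 16 measured other genes of the Hippo pathway in MCF10A, 1 was 2-fold or more higher under ginkgolic acid and 6 were lower by as much, beside 24.3% and 15.2% of all genes. The median log2 ratio was −0.67, beside −0.18 for all genes whose larger value lay between 5 and 50 FPKM and 0.07 for all measured genes. The coactivator genes were under 2-fold apart, with YAP1 at 38.1 FPKM under ginkgolic acid against 43.5 under DMSO, and WWTR1, which encodes its relative TAZ, at 9.97 and 7.28. TEAD1, a DNA-binding partner of YAP, was at 6.45 and 20.1 FPKM, and VGLL3, a cofactor of TEAD proteins, at 5.96 and 20.3. The upstream activators WWC1 and NF2 were at 14.4 and 113 FPKM and at 6.40 and 23.9.

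For the NOTCH1-labelled line, 2 of 17 measured Hippo genes were 2-fold or more higher and 2 lower by as much, with a median of 0.14 that lay between −0.01 and −0.18 under the rescalings. The shares of all genes were 18.9% and 18.8%. YAP1 was at 55.4 and 35.5 FPKM and WWTR1 at 7.89 and 9.55. LATS1, the kinase related to LATS2, was at 4.84 and 1.90 FPKM, and SAV1, a scaffold of the kinase cascade, at 43.9 and 18.2. TEAD4 was at 1.80 and 3.80 FPKM and WWC1 at 19.1 and 41.1. LATS1 thus lay on the same side as LATS2 in this line.

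Other YAP targets went both ways in MCF10A, where 3 of 18 measured were 2-fold or more higher and 5 lower by as much, with a median of 0.37. NT5E, an ectonucleotidase, was at 18.1 FPKM under ginkgolic acid against 3.36 under DMSO, and F3, tissue factor, at 3.19 and 11.9. CRIM1, a transmembrane regulator of growth factors, was at 20.3 and 68.2 FPKM. BIRC5, at 14.9 and 4.31 FPKM, and GADD45A, at 45.2 and 14.2, were also 2-fold or more higher in MCF10A. For the NOTCH1-labelled line, 4 of 19 were 2-fold or more higher and 1 lower by as much, with a median of 0.48. The 4 were NT5E, at 16.4 and 1.67 FPKM, the kinase gene NUAK2, at 3.35 and 1.14, and GADD45A and BIRC5. GADD45A, at 238 and 12.6 FPKM, is a growth arrest and stress gene, and BIRC5, at 78.7 and 3.88, encodes survivin, a protein of mitosis. The 1 lower gene was FJX1, chosen after its values were seen, at 0.614 and 10.7 FPKM, and it was at 0.785 and 16.0 in MCF10A. The shares of higher genes were 3 of 18 and 4 of 19, beside 24.3% and 18.9% of all genes. Those of lower genes were 5 of 18 and 1 of 19, beside 15.2% and 18.8% of all genes.

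**Figure D3:**
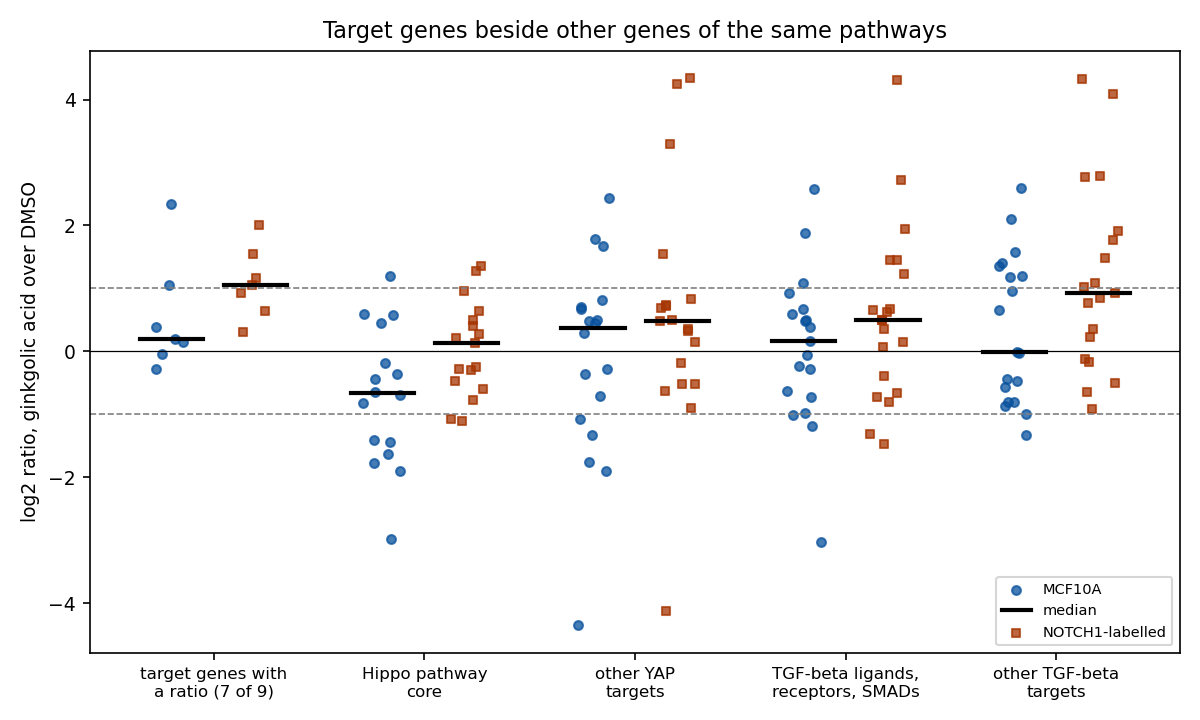
Log2 ratio of ginkgolic acid over DMSO for the measured target genes and for 4 lists of other pathway genes, with circles for MCF10A, squares for the NOTCH1-labelled line, black bars at the medians and dashed lines at 2-fold; each point is a gene, placed sideways at random. As deposited, the medians of the NOTCH1-labelled line lie above those of MCF10A in each list, but with equal upper quartiles those of other YAP targets (0.17 against 0.50) and of TGF-beta ligands, receptors and SMADs (0.18 against 0.30) lie below.

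Ligands, receptors and SMADs of the TGF-beta pathway were mixed in MCF10A, with 3 of 19 measured genes 2-fold or more higher and 3 lower by as much. The median log2 ratio was 0.17, and the shares of all genes were 24.3% and 15.2%. The receptor genes TGFBR1 and TGFBR2 were at 4.65 and 10.6 FPKM and at 4.28 and 8.47. Of the ligand genes, TGFB1 was at 3.65 and 6.05 FPKM and TGFB3 at 7.26 and 1.97. SKI, the corepressor related to SKIL, was at 1.42 FPKM under ginkgolic acid against 11.6 under DMSO, whereas SKIL was nearly level.

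For the NOTCH1-labelled line, 6 of 20 of these genes were 2-fold or more higher and 2 lower by as much. The median was 0.49, and the shares of all genes were 18.9% and 18.8%. TGFB1 was at 5.66 and 2.07 FPKM, the activin receptor gene ACVR1B at 12.5 and 3.24, and LTBP1, which tethers latent TGF-beta to the matrix, at 20.3 and 7.41. The ligand gene TGFB3, higher in MCF10A, was 2-fold or more lower here, at 2.23 and 5.55 FPKM. TGIF1, a homeobox corepressor of SMADs, was at 114 and 17.3 FPKM, and at 38.9 and 18.3 in MCF10A. SKI was at 5.67 and 15.8 FPKM, so SKI and SKIL lay on opposite sides of 0 here. TGFBR2 was at 5.41 and 7.13 FPKM.

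Of 19 measured other TGF-beta targets in MCF10A, 7 were 2-fold or more higher and 1 lower by as much, beside 24.3% and 15.2% of all genes. The median was −0.01, and 0.09 to 0.16 under the rescalings. The intermediate filament gene VIM was at 106 FPKM under ginkgolic acid against 24.8 under DMSO, and FN1, fibronectin, at 16.4 and 5.50. TAGLN, an actin-binding protein of smooth muscle, was at 12.9 and 5.03 FPKM. For the NOTCH1-labelled line, 9 of 19 were 2-fold or more higher and 0 lower by as much, with a median of 0.92, beside 18.9% and 18.8% of all genes. Under each rescaling 8 were higher and 1 lower in MCF10A, and 7 were higher and 1 lower in the NOTCH1-labelled line. The order of the lines by the count of higher genes was thus reversed. BHLHE40, a transcriptional repressor, was at 179 and 10.5 FPKM in the NOTCH1-labelled line, VIM at 142 and 20.5, and TAGLN at 17.7 and 2.58. TGFBI and SMAD7 were under 2-fold in both lines, whereas the genes named here were picked for the largest ratios. In MCF10A the log2 ratios of TGFBI and SMAD7 were 0.39 and −0.29, beside the list median of −0.01. In the NOTCH1-labelled line they were 0.65 and 0.93, beside the list median of 0.92.

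The CCN relatives of CTGF and CYR61 were also low. In MCF10A 1 of the 3 with a row of its own was measured, WISP2, at 2.39 and 3.27 FPKM. For the NOTCH1-labelled line, WISP2 was at 3.41 and 1.32 FPKM and NOV, chosen after its values were seen, at 1.68 and 0.580, and the other 2 relatives were under 1 FPKM in both groups.

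Likeness was measured over the 4 group values, as the distance between log2 FPKM centred on each gene's mean, among 11773 genes with at least 1 FPKM in every group. With only 4 values that share their libraries, this is a description, and many genes lie near each target gene. The closest genes were KIF21A and BTN2A2 for AMOTL2, SETD5 and RP11-640I15.1 for LATS2, PKN2 and ZNF462 for TGFBI, LRIG2 and CMAS for SMAD7, NIPA1 and TBC1D30 for SKIL, and AP001816.1 and UBAP2L for AXL, at distances from 0.049 to 0.14. Within a distance of 0.5 lay 145 genes for LATS2 and 770 for SMAD7, the fewest and the most of the 6. Among the target genes themselves the closest were SMAD7 and SKIL, at 0.20, where SKIL ranked 39 among the 11772 other genes by closeness to SMAD7 and SMAD7 ranked 40 by closeness to SKIL. AMOTL2 and LATS2 were the farthest apart, at 1.36.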

How the data were processed

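The submitters' processing notes name Cuffdiff (2.1.1), Cufflinks (2.1.1), TopHat2 (version 2.0.8b) and Bowtie2 (version 2.1.0), without their roles, and the build GRCh37, also called hg19. No source used here gives the annotation, any setting or the way the 2 samples of each group were joined. The values deposited by the authors are FPKM, 1 per gene and group, per the file headers. Libraries were made from total RNA, per the labels' protocols.

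Unnamed rows, rows that join several genes, small RNAs under 200 bases, repeated symbols and rows off the main chromosomes were not part of the background. Each ratio is the log2 of the ginkgolic acid value over the DMSO value, with no pseudocount, for genes with at least 1 FPKM in either group and no value at 0. The planned test over samples (limma) could not be run on 1 value per group. The target genes and all lists were chosen with earlier results of these data known. Named pathway genes are up to 4 per list and line with the largest ratios among those at least 2-fold apart and at 1 FPKM or more in both groups, plus YAP1, WWTR1, TGFB1 and TGFBR2, and 1 named gene is not reported here; TGFB2 and COL1A1 are in 2 lists, and where a gene is named in 1 line its value in the other may be given. For likeness the 2 closest genes were named. GENCODE release 29 gave gene types, gene lengths and small RNAs within genes, and no printed positions. Promoters came from RefSeq (GRCh38.p14). Other settings tried were a pseudocount of 1 FPKM, no minimum, a minimum of 5 FPKM, 1.5-fold, and 3 rescalings, of which the median of coding genes was added after seeing the data, as were the list medians under all 3. The counting was tested on simulated data. Python 3.11.15, numpy 2.4.6, pandas 2.3.3 and matplotlib 3.10.9 were used.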

Additional observations from a re-analysis of the deposited data

How the results depend on the processing

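No paired analysis was possible because the tables hold 1 value per group, and for the same reason no replicate could be left out. Of the 7 measured target genes, 2 passed 2-fold upwards in MCF10A, 0 with a pseudocount of 1 FPKM and 1 of the 4 left by a minimum of 5 FPKM. In the NOTCH1-labelled line 4 were higher, and 2 with the upper quartiles made equal or the median ratio of coding genes removed. For the difference between lines, 4 were higher by at least 1, but 2 of the 4 left by a minimum of 5 FPKM, 2 with the median ratio removed, and 1 under each of the other rescalings. The count lower by at least 1 was 1, but 0 with the pseudocount or with the 5 FPKM minimum, and 2 with equal upper quartiles, with the coding median removed or at 1.5-fold. No target gene at least 2-fold apart changed direction under these settings. The rescalings subtract −0.11, −0.13 and −0.17 from each log2 ratio in MCF10A, which raises it, and 0.14, 0.32 and 0.27 in the NOTCH1-labelled line, which lowers it. With the median ratio removed, the coding median removed or equal upper quartiles, the median of other YAP targets was lower in the NOTCH1-labelled line than in MCF10A (differences of −0.13, −0.32 and −0.33), the reverse of the deposited order; that of TGF-beta ligands, receptors and SMADs was reversed under the latter pair only (differences of −0.11 and −0.12). Over all genes, the counts at least 2-fold higher were 4301 in MCF10A, from 1163 with the 5 FPKM minimum to 8281 with no minimum, and 3695 in the NOTCH1-labelled line, from 1930 to 6087 (at 1.5-fold). The counts lower were 2683 in MCF10A, from 1560 to 4711, and 3679 in the NOTCH1-labelled line, from 913 to 6742. The depth is unknown, so the precision of CTGF, ANKRD1 and CYR61 cannot be given.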

Other observations

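The rows of each table stand in 2 runs of chromosome order, and the sources used here do not say what the runs mark. In the NOTCH1-labelled table LATS2 and AXL stood in the first run, which held 11.3% of 19525 measured genes and 1703 of the 7374 that were at least 2-fold apart. In the MCF10A table none of the 9 target genes stood in the first run, which held 16.7% of 17664 measured genes and 2303 of the 6984 at least 2-fold apart.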
